A study of Mus musculus with 2 samples.

Results

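Regulatory T cells were examined here as 623 cell barcodes, 200 in the shRFP library and 423 in the shSdc1 library, of the 11688 barcodes in the deposited count tables. Each was chosen by its own transcripts, counted as unique molecular identifiers (UMIs). A barcode had to hold at least 200 detected genes, less than 10% mitochondrial UMIs, at least 1 UMI of the T cell receptor and CD3 genes Cd3d, Cd3e, Cd3g, Trac, Trbc1 and Trbc2, and at least 2 UMIs in sum of Foxp3, Ikzf2, Izumo1r, Il2ra and Tnfrsf4. It had to hold no UMI of Cd8a or Cd8b1, at most 1 of the myeloid gene Lyz2, and at most 1 in sum of the cell cycle genes Mki67, Top2a, Birc5, Ccnb2 and Tpx2. The levels of these 19 genes in the members follow from that choice and are given as a description.

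The cells were live CD45+ leukocytes sorted from subcutaneous tumors of B16, a mouse melanoma line, and sequenced by the droplet method that tags the 3' end of each transcript. All mice were wild type and had been immunized in the left flank with irradiated B16 cells making GM-CSF, a cytokine that recruits antigen-presenting cells. After 12 days they received in the right flank B16 cells carrying a short hairpin RNA against Sdc1 (shSdc1), which encodes the cell surface proteoglycan syndecan-1, or the hairpin named shRFP, and the tumors were taken 16 days later. In each group 6 tumors were pooled into 1 library, so neither group has a replicate, and no difference between the groups was tested. Age, sex and strain of the mice are not given in the labels. The genotype label of the shSdc1 sample reads knockout, although its title and the protocol give a hairpin, carried by the injected tumor cells and not by the leukocytes studied.

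Regulatory T cells (Tregs) are CD4+ T cells that hold other lymphocytes in check. The transcription factor FOXP3 sets their program, high IL-2 receptor lets them take up IL-2, and the receptor CTLA-4 strips costimulatory ligands from antigen-presenting cells. In tumors they tend to have an activated phenotype with high levels of TNF receptor family members such as OX40 (Tnfrsf4), GITR (Tnfrsf18) and 4-1BB (Tnfrsf9), and a tissue-resident type marked by KLRG1, the IL-33 receptor and amphiregulin takes part in repair.

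After the filters on genes and mitochondrial UMIs, 5225 shRFP and 5576 shSdc1 barcodes remained, with 4116399 and 4281577 UMIs and medians of 662 and 601 UMIs. The Treg barcodes were shallower, with 111561 and 240096 UMIs in all and medians of 429.5 UMIs and 328 genes in shRFP and 455 UMIs and 345 genes in shSdc1. At this depth a single transcript was often the only evidence of a gene, and a gene with no UMI in a barcode was not shown to be off there. No member shared its barcode sequence with a member of the other library, while 17 kept barcodes did so across all cells. Levels are UMIs of a gene per 1000000 UMIs of the class (CPM), summed over its barcodes, and numbers in brackets are 95% intervals that cover counting error alone and leave out how mice, tumors or libraries vary.

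Besides the members, 5 other kinds of barcode served as reference points. T barcodes that passed every other gate but held no UMI of the 5 marker genes numbered 383 in shRFP and 557 in shSdc1 (marker-negative T, medians of 365 and 385 UMIs), and 115 and 187 held exactly 1 such UMI. CD8 T barcodes numbered 222 and 324, barcodes with at least 2 Lyz2 UMIs and no T cell transcript numbered 2534 and 1993 (medians of 795.5 and 799 UMIs), and 41 and 124 barcodes failed only the gate on cell cycle genes. The marker-negative barcodes are a mixture, since a Treg whose marker transcripts were missed falls there, as do conventional CD4 T cells, CD8 T cells without a Cd8 UMI and other lymphocytes.

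Foxp3 itself (ENSMUSG00000039521, chromosome X, 7573644 to 7595245, plus strand, on GRCm38) was seen in a minority of the members, with a UMI in 43 of 200 shRFP barcodes (21.5%) and 88 of 423 shSdc1 barcodes (20.8%). Ikzf2, which encodes the transcription factor Helios (ENSMUSG00000025997, chromosome 1, 69531214 to 69687245, minus strand), was the most frequent marker, with a UMI in 79% and 74.7%. Tnfrsf4 was seen in 62.5% and 61.9%, Il2ra, the IL-2 receptor alpha chain, in 23% and 27.0%, and Izumo1r, which encodes the folate receptor 4 protein of Tregs, in 14.5% and 24.3%. At least 2 different marker genes were present in 76.5% and 77.3% of members, and 12% and 10.9% passed on Il2ra or Tnfrsf4 alone, which activated conventional T cells also express. In barcodes without T cell transcripts and with Lyz2, Foxp3 was seen in 0 of 2534, which allows a share of barcodes with a Foxp3 UMI, not of cells expressing it, of up to 0.145% (Clopper-Pearson), and in 4 of 1993 (0.201%). After every barcode was thinned to 300 UMIs, which left out 36 and 52 shallower members, Foxp3 was seen in 16.5% and 14% of members and in none of the thinned Lyz2 barcodes.

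The label was checked on 15 Treg markers that took no part in the choice. Of these, 15 were detected in the shRFP members and 14 in the shSdc1 members, where Gpr83 was at 0. Their summed level was 6355 and 6697 CPM in members, against 1638 and 2128 CPM in marker-negative T and 1163 and 1121 CPM in Lyz2 barcodes. Against marker-negative T, 6 of 6 measured markers in shRFP and 10 of 11 in shSdc1 were at least 1.5-fold higher in members. In shSdc1 1 marker, Nrp1, was lower. Over all genes measured, 23.1% in shRFP and 17% in shSdc1 were this much higher. Cd4 was sparse in the members, with a UMI in 18 of 200 (9%) and 48 of 423 (11.3%), and was absent from all 222 and 324 CD8 T barcodes. Thinned, Cd4 was seen in 4.88% and 7.55% of members, against 1.39% and 4.62% of marker-negative T barcodes.

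Ctla4 (ENSMUSG00000026011, chromosome 1, 60887000 to 60915832, plus strand) was among the genes highest in members relative to marker-negative T barcodes. Its level was 1909 against 282 CPM in shRFP (6.77-fold) and 1753 against 414 CPM in shSdc1 (4.23-fold). A Ctla4 UMI was present in 52% and 51.1% of members, 7.83% and 13.6% of marker-negative T and 0.276% and 0.301% of Lyz2 barcodes, and after thinning in 34.8% and 34.8% of members. The receptors of the TNF family followed the same order. GITR (Tnfrsf18) stood at 1112 against 342 CPM in shRFP (3.25-fold) and 1179 against 375 CPM in shSdc1 (3.15-fold). The level of 4-1BB (Tnfrsf9) was 798 against 234 CPM in shRFP (3.41-fold) and 1062 against 295 CPM in shSdc1 (3.6-fold). The costimulatory receptor Icos was at 771 against 186 CPM in shRFP (4.14-fold) and 683 against 259 CPM in shSdc1 (2.64-fold), so for all of these the members were higher in both libraries.

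Of the tissue Treg and repair list, 7 of 7 measured genes were at least 1.5-fold higher in the members than in marker-negative T of shRFP and 0 lower, and in shSdc1 9 of 13 were higher and 3 lower, namely Nrp1 and the IL-18 receptor genes Il18r1 and Il18rap. Over all genes measured, 23.1% were this much higher and 13.4% lower in shRFP, and 17% and 11.3% in shSdc1. Areg, which encodes the repair factor amphiregulin, was at 574 against 72 CPM in shRFP (7.97-fold) and 375 against 83.7 CPM in shSdc1 (4.48-fold). The inhibitory lectin receptor gene Klrg1 was at 421 against 42 CPM in shRFP (10-fold) and 304 against 63.8 CPM in shSdc1 (4.77-fold). Itgb8, whose product pairs with integrin alpha V to activate TGF-beta, was at 80.7 against 6.0 CPM in shRFP (13.4-fold) and 183 against 23.9 CPM in shSdc1 (7.66-fold), from few UMIs outside the members. Other genes of the ranking were Odc1, for the enzyme that starts polyamine synthesis (3.78 and 3.48-fold in shRFP and shSdc1), Penk, the precursor of enkephalin peptides (6.72 and 4.11-fold), Il1r2, the decoy receptor for IL-1 (4.91 and 3.87-fold), the glutaredoxin gene Glrx (5.36 and 2.87-fold), Stx11 of vesicle fusion (6.22 and 4.74-fold) and Arl5a, a small GTPase (5.38 and 5.49-fold). The barcodes were divided by the marker sum, so these folds describe what the choice picked out. Over the 1550 genes that reached 30 UMIs in each comparison of members with marker-negative T, 128 (8.26%) were at least 1.5-fold higher in the members of both libraries and 62 (4%) at least 1.5-fold lower.

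**Figure D1:**
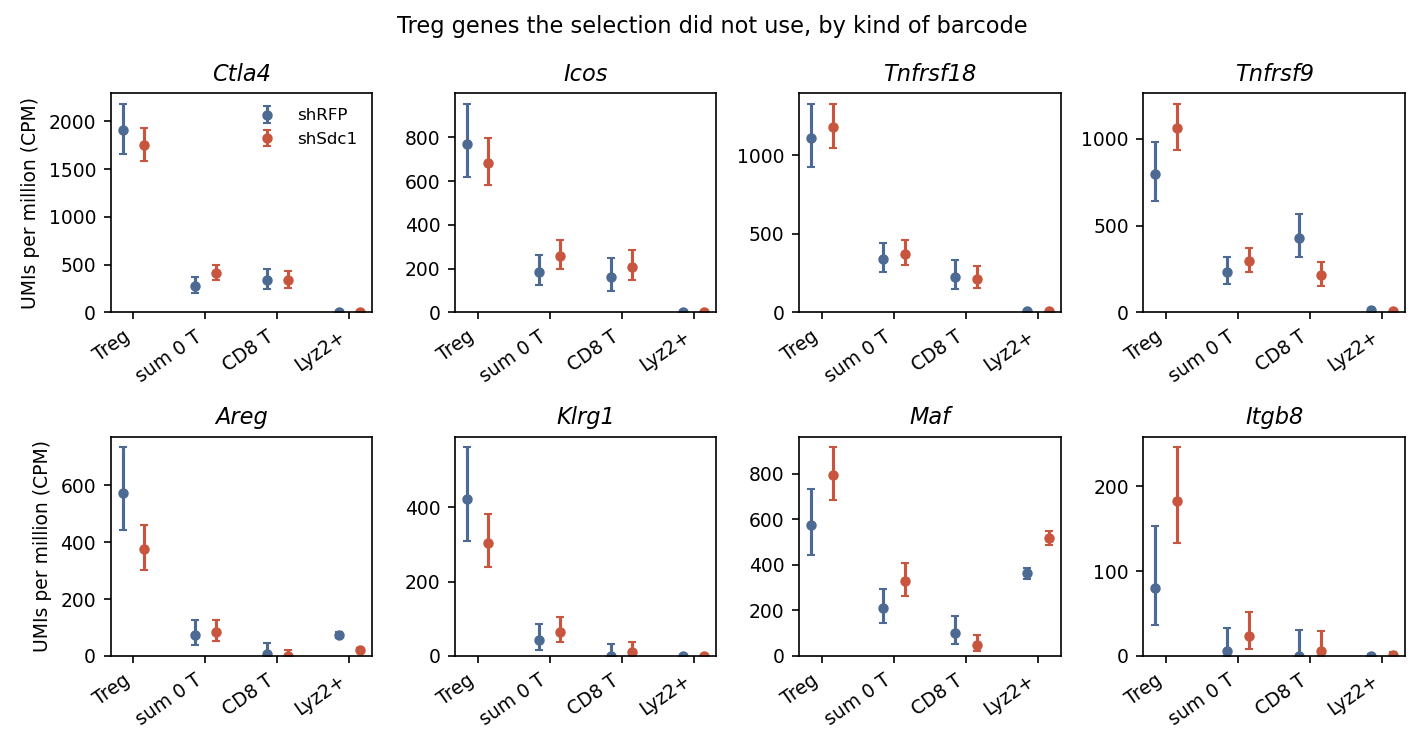
Levels of 8 Treg genes that took no part in choosing the members, in CPM on a linear axis, in Treg barcodes, T barcodes with a marker sum of 0, CD8 T barcodes and Lyz2 barcodes of each library, with points for the summed level and bars for the 95% counting interval. Ctla4 stood at 1909 and 1753 CPM in Treg barcodes, and in every panel the Treg points of both libraries are above those of the other T barcodes.

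Of the cytotoxic effector list, 9 of 12 measured genes in shRFP and 17 of 21 in shSdc1 were at least 1.5-fold lower in members than in marker-negative T, and 0 were higher in either library. Over all genes measured, 13.4% were this much lower and 23.1% higher in shRFP, and 11.3% and 17% in shSdc1. The marker-negative barcodes include CD8 T cells without a Cd8 UMI and other lymphocytes, as given above. The genes that follow are the lowest of the ranking. Ccl5, a chemokine of effector cells, was at 609.5 against 2832 CPM in shRFP (0.215-fold) and 970.4 against 3738 CPM in shSdc1 (0.26-fold). The NK receptor gene Klrd1 stood at 0.136 and 0.153 times its marker-negative level in shRFP and shSdc1, the chemokine gene Xcl1 at 0.103 and 0.165 times, the granzyme A gene Gzma at 0.261 and 0.0402 times (85.7% of its 7 shRFP UMIs lay in 1 barcode) and Ms4a4b, a gene of naive and effector T cells, at 0.116 and 0.215 times. Gzmc had no UMI in the shRFP members and stood at 0.0988 times the marker-negative level in shSdc1, with 94.7% of its 19 UMIs in 1 of 2 barcodes. Also in this group were Ly6c2 (0.0896 and 0.0541 times), Plac8 (0.277 and 0.254 times), the integrin beta 1 gene Itgb1 (0.176 and 0.212 times), the actin regulator Evl (0.112 and 0.0427 times), the glucosylceramide synthase gene Ugcg (0.138 and 0.216 times) and Thbs1 (0.061 and 0.169 times).

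For Ctla4, Ccl5 and Areg, T barcodes with 1 marker UMI lay in summed level between those with 0 and the members. These sums do not show whether single barcodes were graded or a mixture of Tregs and other T cells. At marker sums of 0, 1, 2 and at least 3, Ctla4 was at 282, 1335, 2257 and 1722 CPM in shRFP and at 414, 1204, 1835 and 1722 CPM in shSdc1. Ccl5 went the other way, from 2832, 1571, 795 to 509.8 CPM and from 3738, 2285, 1387 to 809 CPM. Areg was at 72, 283, 487 and 620.1 CPM in shRFP and at 83.7, 100.3, 179 and 451 CPM in shSdc1. Barcodes with a sum of 1, just outside, therefore already held several times the Ctla4 of those with 0. Members with a sum of exactly 2 made up 41% of the shRFP and 33.8% of the shSdc1 members, and those with a sum of at least 4 made up 35% and 43.3%.

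**Figure D2:**
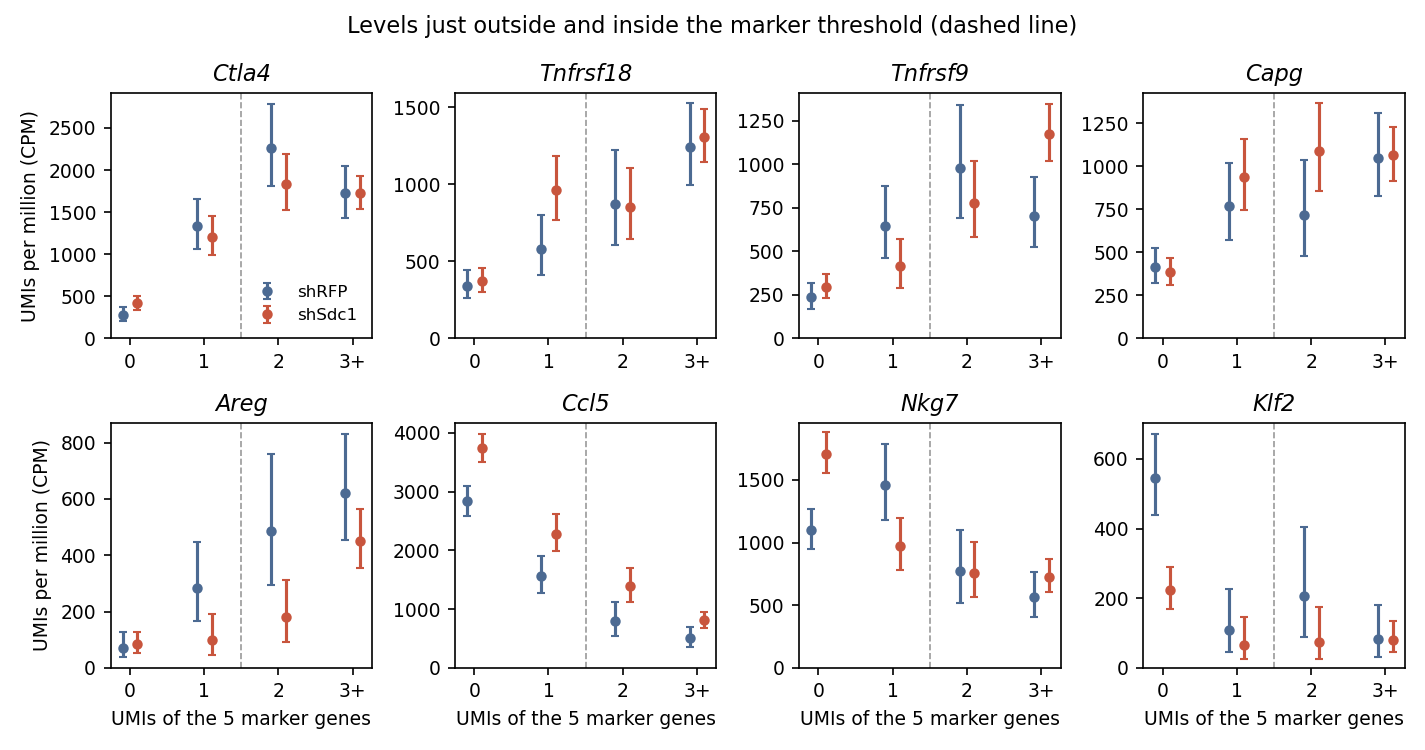
Levels in CPM of 8 genes not used by the selection, by the summed UMIs of the 5 marker genes (0, 1, 2, 3 or more), for each library, with 95% counting intervals and a dashed line at the threshold for membership. Ctla4 is at 282 CPM at a sum of 0 and at 1335 CPM at a sum of 1 in shRFP, while Ccl5 is at its highest at a sum of 0.

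Markers of other cells were read over whole lists. Of 7 gamma delta T genes found in the tables, 0 were detected in shRFP members and 3 in shSdc1 members, at a summed 0 and 20.8 CPM. Of 10 NK genes, 6 and 10 were detected at 394 and 354 CPM, against 1080.0 and 2188 CPM in marker-negative T, with Ncr1, Klrb1c, Klra8 and Klra4 at 0 in shRFP. Of 14 genes of type 2 innate lymphoid cells, 9 and 11 were detected at 1855 and 1370.3 CPM. That list shares Areg, Klrg1, Gata3 and Il1rl1 with tissue Tregs, and its genes Il5 and Nmur1 were at 0 in both libraries. Of 10 B and plasma cell genes, 5 and 3 were detected at 475 and 425 CPM, with Ms4a1 at 0 in both.

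Myeloid transcripts were present in the Treg barcodes of both libraries. Of 20 monocyte and macrophage genes, 17 were detected in shRFP and 20 in shSdc1 members, at 2089 and 2112 CPM in sum, against 41939.6 and 53164 CPM in Lyz2 barcodes. Of 12 dendritic cell genes, which include MHC class II, 9 and 10 were detected at 5441 and 2287 CPM, with Clec9a at 0 in both libraries. At least 1 UMI of 8 antigen presentation, complement and Apoe genes was found in 91 shRFP members (45.5%) and 182 shSdc1 members (43.0%). Most of them were marked by Cd74, which had a UMI in 75 shRFP and 141 shSdc1 members. Of 9 neutrophil and mast cell genes, 3 were detected in shRFP at 233 CPM, all from 1 barcode, and 1 in shSdc1 at 25 CPM. Melanoma genes gave 3 and 2 UMIs, and 5 red cell genes gave 0 in both. The automatic doublet threshold of Scrublet marked 1 and 0 barcodes, which is no working threshold, so doublets were left in, and removing the 218 and 249 barcodes with the highest scores took out 5 and 13 members.

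Tregs were a larger share of the shSdc1 library. They were 200 of 5225 kept barcodes in shRFP, or 3.83% [3.32 to 4.38], and 423 of 5576 in shSdc1, or 7.59% [6.9 to 8.31], a ratio of 1.98 [1.67 to 2.36]. The other T barcodes were also larger shares of shSdc1, with ratios of 1.36 [1.19 to 1.56] for marker-negative T, 1.52 [1.2 to 1.94] for a marker sum of 1 and 1.37 [1.15 to 1.63] for CD8 T. Within the T barcodes that passed every gate but the marker sum, Tregs were 200 of 698 (28.7%) in shRFP and 423 of 1167 (36.2%) in shSdc1, a ratio of 1.27 [1.07 to 1.5]. Over 10 alternative rules for barcodes the first ratio lay between 1.83 and 2.22 and the second between 1.17 and 1.48. With every kept barcode thinned to 300 UMIs before the rule was applied, the shares were 2.01% and 4.41% of barcodes, a ratio of 2.19 [1.72 to 2.82], and 17.2% and 21.0% of the T barcodes, a ratio of 1.22 [0.954 to 1.56]. The interval of this ratio includes 1, as it does with at least 500 genes per barcode (1.2 [0.837 to 1.73]) and with a required Foxp3 UMI (1.22 [0.841 to 1.81]). More Tregs and fewer other sorted leukocytes cannot be told apart in a share, and counts of cells per tumor are not given in the sources used here.

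**Figure D3:**
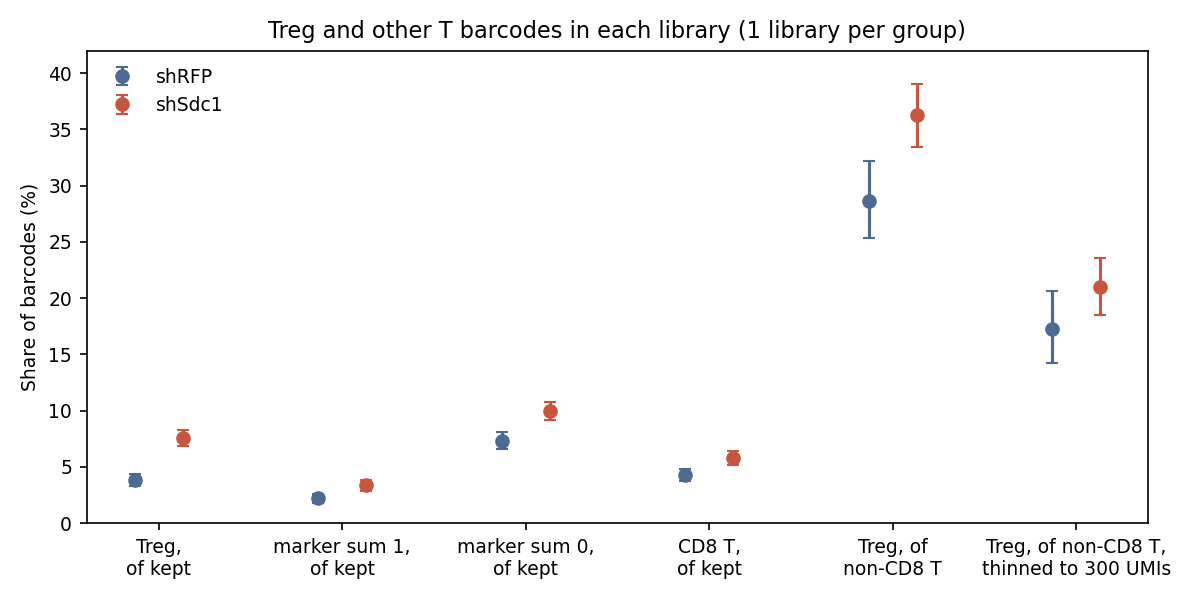
Shares of barcodes in percent for Tregs and for the other T barcodes, per library, with 95% Clopper-Pearson intervals that cover counting error only. Tregs stand at 3.83% of kept barcodes in shRFP and 7.59% in shSdc1, and at 28.7% and 36.2% of the T barcodes with no Cd8 UMI.

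Dividing cells were left out by the rule. Of the barcodes that passed every other gate, 41 of 241 (17.0%) in shRFP and 124 of 547 (22.7%) in shSdc1 held at least 2 cell cycle UMIs, a ratio of 1.33 [0.929 to 1.95]. These barcodes were deeper, with medians of 1045 and 1300.5 UMIs, and after thinning to 300 UMIs the count was 3 of 100 and 6 of 228, a ratio of 0.877 [0.187 to 5.42]. The same gate took 16 of 399 (4.01%) and 40 of 597 (6.70%) barcodes from marker-negative T and 29 of 251 (11.6%) and 76 of 400 (19%) from CD8 T.

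Between the libraries, levels in the members were compared for the 2158 genes whose members' UMIs, added over the libraries, reached 30. Of these, 286 (13.3%) were at least 1.5-fold higher and 204 (9.45%) at least 1.5-fold lower in shSdc1, and the median log2 ratio was 0.03. With the further condition that the counting interval lay beyond 1, 74 (3.43%) were higher and 85 (3.94%) lower. In marker-negative T, 408 of 2437 genes (16.7%) were higher and 211 (8.66%) lower, with a median of 0.09. In CD8 T, 250 of 1690 genes (14.8%) were higher and 154 (9.11%) lower, with a median of 0.04. These shares include every gene that crosses 1.5-fold by counting error, and a list of genes is given below with its count and median beside them.

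**Figure D4:**
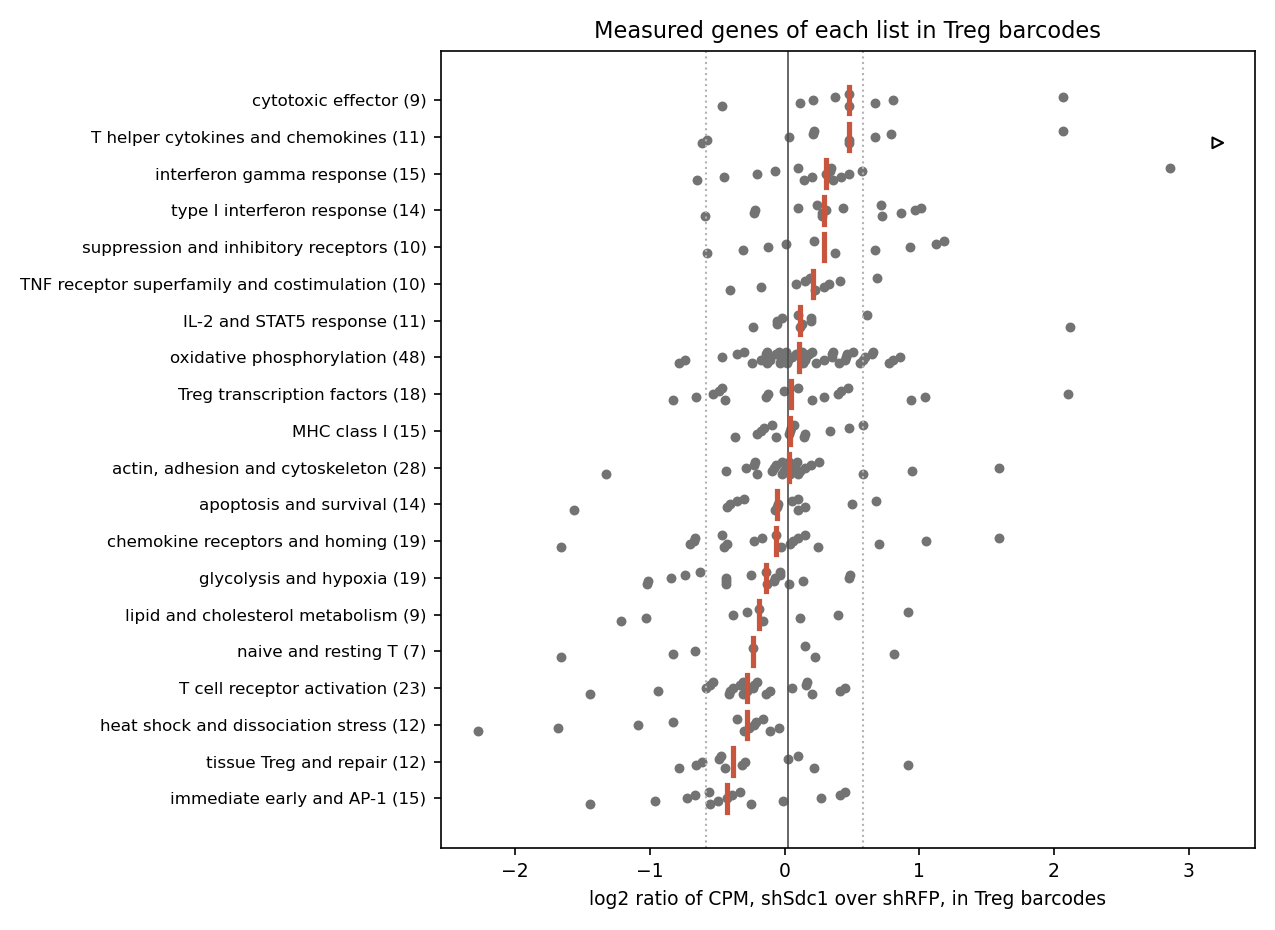
Log2 ratios of CPM, shSdc1 over shRFP, in Treg barcodes for the measured genes of each list, with the number measured after the list's name, grey points for genes, open triangles for lower bounds, a red bar for the list's median, dotted lines at 1.5-fold and a vertical line at the median of all genes (0.03). The median of the AP-1 list is -0.43 and that of the suppression list 0.29, against 0.03 for all genes.

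Among genes of suppression and inhibitory receptors, 10 of 20 were measured, 4 were at least 1.5-fold higher and 0 at least 1.5-fold lower in shSdc1, and their median log2 ratio was 0.29. Ctla4 was at 1909 CPM in shRFP (213 UMIs) and 1753 CPM in shSdc1 (421 UMIs), a ratio of 0.918 [0.777 to 1.09]. Lag3, whose product binds MHC class II and damps T cell signals, was at 117 CPM in shRFP (13 UMIs) and 254 CPM in shSdc1 (61 UMIs), a ratio of 2.18 [1.19 to 4.33]. Fgl2, which encodes a secreted suppressor of dendritic cells, was at 188 CPM in shRFP (21 UMIs) and 358 CPM in shSdc1 (86 UMIs), a ratio of 1.9 [1.17 to 3.23]. These genes differ in direction and size, with Ctla4 near equal and Lag3 and Fgl2 higher in the shSdc1 members. Itgb8 was at 80.7 CPM in shRFP (9 UMIs) and 183 CPM in shSdc1 (44 UMIs), a ratio of 2.27 [1.09 to 5.29]. Its partner Itgav was at 278 CPM in shRFP (31 UMIs) and 441 CPM in shSdc1 (106 UMIs), a ratio of 1.59 [1.06 to 2.45], and at 0.989 among members with at least 500 genes. The cytokine gene Tgfb1 was at 323 CPM in shRFP (36 UMIs) and 217 CPM in shSdc1 (52 UMIs), a ratio of 0.671 [0.43 to 1.06], while Il10 gave 12 and 30 UMIs, ratio 1.16 [0.578 to 2.49]. Pdcd1, for the receptor PD-1, gave 19 and 33 UMIs, ratio 0.807 [0.446 to 1.5]. Genes too sparse to be measured included Lrrc32 (12 and 17 UMIs), which presents latent TGF-beta, Entpd1 (5 and 20), the ectoenzyme CD39, Tigit (2 and 6) and Nrp1 (4 and 9). In marker-negative T barcodes the ratio was 2.32 for Lag3 and 1.59 for Fgl2, and the median of the list was 0.60 there and 0.01 in CD8 T.

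Among transcription factors of Tregs and their subsets, 18 of 29 were measured, 3 were at least 1.5-fold higher and 2 at least 1.5-fold lower in shSdc1, and their median log2 ratio was 0.05. Maf, a factor of IL-10-producing and gut Tregs, was at 574 CPM in shRFP (64 UMIs) and 796 CPM in shSdc1 (191 UMIs), a ratio of 1.39 [1.04 to 1.87], and Gata3, a factor of tissue Tregs and type 2 cells, at 323 CPM in shRFP (36 UMIs) and 204 CPM in shSdc1 (49 UMIs), a ratio of 0.632 [0.403 to 1.0]. Cbfb, the partner subunit of RUNX factors, was at 35.9 CPM in shRFP (4 UMIs) and 154 CPM in shSdc1 (37 UMIs), a ratio of 4.3 [1.54 to 16.6], and Runx3 gave 7 and 31 UMIs, ratio 2.06 [0.889 to 5.54]. Id2, an inhibitor of E proteins, gave 79 and 123 UMIs, ratio 0.723 [0.541 to 0.972], Batf 43 and 66 UMIs, ratio 0.713 [0.478 to 1.07], and Rora 43 and 68 UMIs, ratio 0.735 [0.494 to 1.1]. Maf and Cbfb were thus higher in shSdc1 members while Gata3 and Id2 were lower, and the interval of Runx3 includes 1. Ikzf4, which encodes the Helios relative Eos, gave 12 and 34 UMIs, ratio 1.32 [0.665 to 2.79]. In marker-negative T the ratios of Gata3 and Id2 were 1.33 and 1.4. Cbfb was higher in shSdc1 there too, with a ratio of 1.99 [1.07 to 3.95]. Its CD8 T ratio was 1.8 [0.879 to 3.96], an interval that includes 1. Marker-negative Maf was also higher in shSdc1, 331 against 210 CPM, without an interval for this difference. The higher levels of Maf and Cbfb were thus not limited to the members.

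Genes of the tissue Treg and repair list had the median -0.38, with 12 of 20 measured, 1 higher and 3 lower. Areg was at 574 CPM in shRFP (64 UMIs) and 375 CPM in shSdc1 (90 UMIs), a ratio of 0.653 [0.469 to 0.915], with 18.8% of its shRFP UMIs in 1 barcode. Without the top barcode of each library the ratio of Areg was 0.697 [0.484 to 1.01], an interval that includes 1. Klrg1 was at 421 CPM in shRFP (47 UMIs) and 304 CPM in shSdc1 (73 UMIs), a ratio of 0.722 [0.493 to 1.06]. The ratio was 1.08 without the members holding a UMI of the 8 antigen presentation, complement and Apoe genes, most of which hold Cd74. Il1rl1, the receptor for the alarmin IL-33, was at 143 CPM in shRFP (16 UMIs) and 83.3 CPM in shSdc1 (20 UMIs), a ratio of 0.581 [0.286 to 1.2]. Over all members the ratio of each of these was below 1, with intervals that include 1 for Klrg1 and Il1rl1 and, without its top barcodes, for Areg. Dgat1, which makes triacylglycerol, was at 125 CPM in shRFP (14 UMIs) and 237 CPM in shSdc1 (57 UMIs), a ratio of 1.89 [1.04 to 3.68], the 1 gene of the list past 1.5-fold upward. Odc1 gave 157 and 276 UMIs, ratio 0.817 [0.669 to 1.0] and Penk 27 and 59 UMIs, ratio 1.02 [0.634 to 1.67]. In marker-negative T the list median was 0.39, from 8 measured genes, and the ratio of Areg was 1.16. The median in members lay between -0.78 and -0.25 over 16 alternative settings.

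The summed level of Areg was lower in shSdc1 on both sides of the split by Foxp3, without an interval for either side. These are parts of the difference over all members given above and no separate support for it. Areg stood at 578 and 273 CPM in the 43 and 88 members with a Foxp3 UMI, and at 572 and 400.1 CPM in the 157 and 335 without. Gata3 stood at 578 and 273 CPM with, from the same UMI totals as Areg (13 in each library), and 258 and 187 CPM without. Members with a UMI of Areg or Klrg1 numbered 51 (25.5%) in shRFP and 99 (23.4%) in shSdc1. In that subset Gzmb, the granzyme B gene, was at 542 and 1144 CPM and Ctla4 at 2072 and 2481 CPM, against 436 and 437 CPM and 1846 and 1528 CPM in the rest. The share of members with such a UMI was thus near equal in the libraries while the summed level of Areg was lower in shSdc1.

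In the TNF receptor and costimulation list, 10 of 17 were measured, 1 was at least 1.5-fold higher and 0 at least 1.5-fold lower in shSdc1, and their median log2 ratio was 0.21. Tnfrsf9 was at 798 CPM in shRFP (89 UMIs) and 1062 CPM in shSdc1 (255 UMIs), a ratio of 1.33 [1.04 to 1.71], and at a ratio of 0.764 among members with a Foxp3 UMI. Tnfrsf1b, the TNF receptor that supports Treg expansion, was at 197 CPM in shRFP (22 UMIs) and 317 CPM in shSdc1 (76 UMIs), a ratio of 1.61 [0.988 to 2.71]. Tnfrsf18 gave 124 and 283 UMIs, ratio 1.06 [0.856 to 1.32] and Icos 86 and 164 UMIs, ratio 0.886 [0.678 to 1.16], so these intervals include 1. Tnfrsf4, Il2ra and Izumo1r, which selected the members, gave ratios of 1.02, 1.38 and 1.86, and Foxp3 and Ikzf2 of 0.929 and 1.01. For the response to IL-2 through STAT5, 11 of 19 were measured, 2 were at least 1.5-fold higher and 0 at least 1.5-fold lower in shSdc1, and their median log2 ratio was 0.12. The IL-2 receptor beta chain gene Il2rb gave 57 and 133 UMIs, ratio 1.08 [0.789 to 1.51], and the feedback inhibitor Cish 20 and 47 UMIs, ratio 1.09 [0.635 to 1.95]. Socs2, another inhibitor of cytokine signals, was at 26.9 CPM in shRFP (3 UMIs) and 117 CPM in shSdc1 (28 UMIs), a ratio of 4.34 [1.34 to 22.3].

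Among chemokine receptors and homing genes, 19 of 28 were measured, 3 were at least 1.5-fold higher and 4 at least 1.5-fold lower in shSdc1, and their median log2 ratio was -0.06. Ccr2, which guides cells from blood to inflamed tissue, was at 583 CPM in shRFP (65 UMIs) and 358 CPM in shSdc1 (86 UMIs), a ratio of 0.615 [0.44 to 0.862], with a ratio of 2.69 in marker-negative T and of 1.07 among members with at least 500 genes. Ccr7, the receptor for lymph node entry, was at 197 CPM in shRFP (22 UMIs) and 62.5 CPM in shSdc1 (15 UMIs), a ratio of 0.317 [0.153 to 0.639], with a ratio of 0.162 in marker-negative T. Rgs1, which damps signals of chemokine receptors, was at 843 CPM in shRFP (94 UMIs) and 529 CPM in shSdc1 (127 UMIs), a ratio of 0.628 [0.477 to 0.829]. Ccr2, Ccr7 and Rgs1 were lower in the shSdc1 members, and of them Ccr7 alone was also lower in marker-negative T. The integrin gene Itgb1 gave 4 and 26 UMIs, ratio 3.02 [1.05 to 11.9] and Itga4 9 and 40 UMIs, ratio 2.07 [0.986 to 4.84], while Cxcr3 gave 19 and 35 UMIs, ratio 0.856 [0.476 to 1.58]. Without the top barcodes the ratio of Itgb1 was 2.94 [0.866 to 15.5], an interval that includes 1. Itgb1 was also higher in marker-negative T, at 2.5 [1.7 to 3.77], and in CD8 T, at 2.58 [1.57 to 4.45]. Ccr8, a receptor gene of tumor Tregs, had 3 UMIs in each library. The naive and resting list had a median of -0.24 in members and of -1.06 and -1.09 in marker-negative and CD8 T. Its genes were sparse in members, Klf2 giving 14 and 19 UMIs, ratio 0.631 [0.30 to 1.36], Satb1 19 and 23 UMIs, ratio 0.562 [0.293 to 1.09], Lef1 10 and 18 UMIs and Tcf7 2 and 1.

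Immediate early genes, which cells induce within minutes of a stimulus and also during tissue digestion, had the lowest median of the 21 gene lists. Of them 15 of 18 were measured, 0 were at least 1.5-fold higher and 4 at least 1.5-fold lower in shSdc1, and their median log2 ratio was -0.43. Ier2 was at 430.3 CPM in shRFP (48 UMIs) and 158 CPM in shSdc1 (38 UMIs), a ratio of 0.368 [0.234 to 0.575]. Jun, a subunit of the AP-1 factor, was at 341 CPM in shRFP (38 UMIs) and 175 CPM in shSdc1 (42 UMIs), a ratio of 0.514 [0.323 to 0.818]. Jund and Junb gave 260 and 398 UMIs, ratio 0.711 [0.607 to 0.835] and 289 and 475 UMIs, ratio 0.764 [0.658 to 0.887]. The exceptions were Dusp1, a phosphatase of MAP kinases, with 59 and 173 UMIs, ratio 1.36 [1.01 to 1.86], and Btg2 and Fosb, at ratios of 1.33 and 1.21. The list median was -0.24 in marker-negative T and -0.26 in CD8 T, so the lower levels were not limited to the members. In Lyz2 barcodes Ier2 had a ratio of 0.424 [0.368 to 0.487]. For activation through the T cell receptor, 23 of 30 were measured, 0 were at least 1.5-fold higher and 2 at least 1.5-fold lower in shSdc1, and their median log2 ratio was -0.28. Cd69, an early activation antigen that holds cells in tissue, was at 224 CPM in shRFP (25 UMIs) and 117 CPM in shSdc1 (28 UMIs), a ratio of 0.52 [0.293 to 0.931]. Nr4a1, a direct target of receptor signals, gave 51 and 76 UMIs, ratio 0.692 [0.479 to 1.01], and Nfkbia, the NF-kB inhibitor, 192 and 340 UMIs, ratio 0.823 [0.687 to 0.987].

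A pair of heat shock genes led the ranking of genes lower in shSdc1 members. Dnajb1, which encodes an HSP40 cochaperone (ENSMUSG00000005483, chromosome 8, 83608193 to 83612653, plus strand), was at 242 CPM in shRFP (27 UMIs) and 50 CPM in shSdc1 (12 UMIs), a ratio of 0.207 [0.0953 to 0.422], with ratios of 0.577 in marker-negative T and 0.74 in CD8 T. Hspa1a, an inducible HSP70 gene (ENSMUSG00000091971, chromosome 17, 34969190 to 34972156, minus strand), was at 601 CPM in shRFP (67 UMIs) and 187 CPM in shSdc1 (45 UMIs), a ratio of 0.312 [0.209 to 0.462], with a ratio of 0.559 in marker-negative T. Among the 43 and 88 members with a Foxp3 UMI, Hspa1a was at a ratio of 1.42, without an interval. Its neighbor Hspa1b gave 76 and 77 UMIs, ratio 0.471 [0.338 to 0.655], and the split of reads between these near-identical genes is uncertain. Constitutive chaperones differed little, with Hspa8 at 0.893 [0.764 to 1.05] and Hsp90ab1 at 0.853 [0.73 to 0.999]. In the list 12 of 17 were measured, 0 were at least 1.5-fold higher and 4 at least 1.5-fold lower in shSdc1, and their median log2 ratio was -0.28, against medians of -0.34 in marker-negative and -0.25 in CD8 T. In Lyz2 barcodes the ratios of Dnajb1 and Hspa1a were 0.448 [0.349 to 0.571] and 0.403 [0.378 to 0.431], so their lower levels were not limited to T barcodes. Induced chaperones and immediate early genes are also known to respond to handling of the tissue, and the part of handling in these values was not tested.

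Interferon-induced genes had a median above that of all genes. In the type I interferon list 14 of 38 were measured, 5 were at least 1.5-fold higher and 1 at least 1.5-fold lower in shSdc1, and their median log2 ratio was 0.30. Ifi27l2a (ENSMUSG00000079017, chromosome 12, 103442167 to 103443680, minus strand) was at 1165 CPM in shRFP (130 UMIs) and 1924 CPM in shSdc1 (462 UMIs), a ratio of 1.65 [1.36 to 2.02], with ratios of 1.7 in marker-negative T and 2.0 in CD8 T. It stood at 1335 and 1909.9 CPM in members with a Foxp3 UMI and 1122 and 1928 CPM in those without. Isg20, an exonuclease gene, gave 14 and 59 UMIs, ratio 1.96 [1.08 to 3.8], and Ly6a, the stem cell antigen Sca-1, 127 and 339 UMIs, ratio 1.24 [1.01 to 1.53]. Bst2, which encodes the virus tether tetherin (ENSMUSG00000046718, chromosome 8, 71534255 to 71537456, minus strand), was at 134 CPM in shRFP (15 UMIs) and 221 CPM in shSdc1 (53 UMIs), a ratio of 1.64 [0.912 to 3.14]. The genes that went the other way were Slfn2, with 40 and 57 UMIs, ratio 0.662 [0.434 to 1.02], and Zbp1 and Phf11b, both at a ratio near 0.856. The median was 0.37 in marker-negative T and 0.14 in CD8 T, on either side of the members' 0.30.

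Promoter sequences show the elements through which the chaperone and interferon genes are known to be induced. RefSeq promoter rows on GRCm38.p6 were searched on both strands for the core of the heat shock element, GAANNTTC or TTCNNGAA, and of the interferon-stimulated response element, GAAA, any 2 bases and GAAA, in the 250 bases before the start site. The promoter of Hspa1a, chr17:34972157-34972406 on the minus strand, held 1 heat shock element that ends 96 bases before the start, shown in capitals. That of Bst2, chr8:71537473-71537722 on the minus strand, held 2 overlapping interferon elements, the nearer 114 bases before the start, in capitals.
Hspa1a: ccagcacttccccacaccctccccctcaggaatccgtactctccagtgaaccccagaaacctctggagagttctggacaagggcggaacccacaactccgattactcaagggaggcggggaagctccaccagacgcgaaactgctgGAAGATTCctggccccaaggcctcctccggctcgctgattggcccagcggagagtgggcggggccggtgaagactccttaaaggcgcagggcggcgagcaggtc
Bst2: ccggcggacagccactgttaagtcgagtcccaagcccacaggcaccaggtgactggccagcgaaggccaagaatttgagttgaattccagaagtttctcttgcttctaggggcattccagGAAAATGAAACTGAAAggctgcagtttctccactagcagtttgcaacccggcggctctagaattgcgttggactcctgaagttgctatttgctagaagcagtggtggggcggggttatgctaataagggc
The Hspa1b promoter matched that of Hspa1a at 247 of 250 bases. A heat shock element was found in 6 of the 8 measured heat shock genes with a row (75%; Dnaja1, Hspa1a, Hspa1b, Hspd1, Hspe1 and Hsph1), against 14.5% of 27025 genes, and not in the window of Dnajb1. An interferon element was found in 5 of 9 measured type I interferon genes with a row (55.6%; Bst2, Ifi203, Isg15, Phf11b and Trim30a), against 3.46% of genes. Dnajb1, without a match, had the lowest ratio of the chaperone genes, and Phf11b, with a match, was below 1. A match is a description of the letters and no evidence of binding.

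In the interferon gamma list 15 of 29 were measured, 1 was at least 1.5-fold higher and 1 at least 1.5-fold lower in shSdc1, and their median log2 ratio was 0.31. Irf8, a transcription factor of myeloid and B cells that activated T cells can also express, was at 26.9 CPM in shRFP (3 UMIs) and 196 CPM in shSdc1 (47 UMIs), a ratio of 7.28 [2.34 to 36.6], spread over 38 shSdc1 barcodes, with a ratio of 2.06 in marker-negative T. Irf1 gave 35 and 48 UMIs, ratio 0.637 [0.404 to 1.02], while the immunoproteasome genes Psmb8 and Psmb9 gave ratios of 1.11 [0.88 to 1.4] and 1.28 [0.922 to 1.81]. MHC class I genes were at nearly the same level in both libraries. Their median was 0.04 over 15 measured genes, of which 0 were past 1.5-fold, with H2-K1 at a ratio of 1.04 [0.933 to 1.15], H2-D1 at 1.03 [0.92 to 1.15] and B2m at 1.1 [0.964 to 1.26].

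Effector cytokine and cytotoxic genes, which are low in most Tregs, had the highest medians of the 21 gene lists. In the cytokine and chemokine list 11 of 28 were measured, 4 were at least 1.5-fold higher and 1 at least 1.5-fold lower in shSdc1, and their median log2 ratio was 0.48. In the cytotoxic list 9 of 26 were measured, 3 were at least 1.5-fold higher and 0 at least 1.5-fold lower in shSdc1, and their median log2 ratio was 0.48. Both lists hold Ifng, Ccl3, Ccl4, Ccl5 and Xcl1, so their medians are not independent of each other. Ccl5 was at 609.5 CPM in shRFP (68 UMIs) and 970.4 CPM in shSdc1 (233 UMIs), a ratio of 1.59 [1.21 to 2.12], and Ccl4 gave 49 and 147 UMIs, ratio 1.39 [1.0 to 1.97] and Gzmb 52 and 145 UMIs, ratio 1.3 [0.938 to 1.81]. Ifng, the interferon gamma gene, had 3 UMIs in shRFP and 27 in shSdc1, a ratio of 4.18 [1.29 to 21.5], and 17 of the 27 lay in the 46 members selected on Il2ra or Tnfrsf4 without Foxp3, Ikzf2 or Izumo1r. With members chosen instead by at least 1 UMI of Foxp3, Ikzf2 or Izumo1r, the medians of these lists were -0.14 and -0.024. The granule genes Nkg7 and Ctsw gave ratios of 1.16 [0.875 to 1.55] and 1.08 [0.534 to 2.34]. Levels of Ccl5 in members stayed below those of marker-negative T in both libraries, as given above, and the marker-negative ratio of Ccl5 was 1.32.

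Members selected on Il2ra or Tnfrsf4 alone numbered 24 in shRFP and 46 in shSdc1. In them Maf was at 120.3 and 783 CPM and Tnfrsf9 at 1023 and 2018 CPM. In the 176 and 377 members with a UMI of Foxp3, Ikzf2 or Izumo1r, Maf was at 653 and 797 CPM and Tnfrsf9 at 758 and 955 CPM. Ctla4 was at 1203 and 2142 CPM in the first kind and 2033 and 1709.8 CPM in the second. Ctla4 was thus present in the smaller subset too. The levels of Maf and Tnfrsf9 were higher in shSdc1 in both subsets, without an interval for these differences. The smaller subset held 16625 and 24280 UMIs in all, so its level of Maf in shRFP rests on very few UMIs. Among members with a Foxp3 UMI the ratio of Tnfrsf9 was 0.764.

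In the glycolysis and hypoxia list 19 of 28 were measured, 0 were at least 1.5-fold higher and 5 at least 1.5-fold lower in shSdc1, and their median log2 ratio was -0.14. Gapdh, a central glycolytic enzyme, was at 4222 CPM in shRFP (471 UMIs) and 3128 CPM in shSdc1 (751 UMIs), a ratio of 0.741 [0.659 to 0.833], and Gpi1 gave 80 and 103 UMIs, ratio 0.598 [0.442 to 0.811]. The stress genes Ddit4, Ero1l and Higd1a, which hypoxia induces, gave ratios of 0.558 [0.368 to 0.847], 0.492 [0.299 to 0.81] and 0.496 [0.292 to 0.844], while Hif1a, the hypoxia-inducible factor itself, was at 583 CPM in shRFP (65 UMIs) and 816 CPM in shSdc1 (196 UMIs), a ratio of 1.4 [1.05 to 1.88], and at 0.967 among members with a Foxp3 UMI. Other glycolytic genes were near equal, with Ldha at 0.978 [0.804 to 1.19], Aldoa at 0.977 [0.799 to 1.2] and Pkm at 0.913 [0.756 to 1.11]. In oxidative phosphorylation 48 of 52 were measured, 6 were at least 1.5-fold higher and 2 at least 1.5-fold lower in shSdc1, and their median log2 ratio was 0.11. Ndufa4, a subunit of respiratory complex IV, gave 18 and 70 UMIs, ratio 1.81 [1.06 to 3.22]. In lipid metabolism 9 of 25 were measured, 1 was at least 1.5-fold higher and 2 at least 1.5-fold lower in shSdc1, and their median log2 ratio was -0.19. Fabp5, a fatty acid carrier, was at 332 CPM in shRFP (37 UMIs) and 162 CPM in shSdc1 (39 UMIs), a ratio of 0.49 [0.304 to 0.79] (0.637 [0.377 to 1.09] without the top barcodes), and Idi1 of the sterol pathway gave 28 and 26 UMIs, ratio 0.431 [0.243 to 0.763]. Both were lower in marker-negative T as well, at ratios of 0.305 and 0.409.

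Of cytoskeletal genes 28 of 29 were measured, 2 were at least 1.5-fold higher and 1 at least 1.5-fold lower in shSdc1, and their median log2 ratio was 0.03. Myh9, the heavy chain of non-muscle myosin IIA (ENSMUSG00000022443, chromosome 15, 77760587 to 77842175, minus strand), was at 448 CPM in shRFP (50 UMIs) and 862 CPM in shSdc1 (207 UMIs), a ratio of 1.92 [1.41 to 2.68], with ratios of 1.52 and 2.12 in marker-negative and CD8 T. Vim and Actg1 gave ratios of 0.74 [0.641 to 0.855] and 0.821 [0.746 to 0.905], and Actb, the most deeply counted of the list with 1915 and 4067 UMIs, 0.987 [0.934 to 1.04]. In the apoptosis and survival list 14 of 23 were measured, 1 was at least 1.5-fold higher and 1 at least 1.5-fold lower in shSdc1, and their median log2 ratio was -0.05. Pmaip1, the BH3-only killer Noxa, was at 197 CPM in shRFP (22 UMIs) and 66.6 CPM in shSdc1 (16 UMIs), a ratio of 0.338 [0.166 to 0.674], and Mcl1, a survival factor that Tregs need, gave 46 and 106 UMIs, ratio 1.07 [0.751 to 1.55].

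The ranking between the libraries was led by genes with few UMIs in shRFP. Ccl1, a ligand of CCR8, had 0 UMIs in shRFP and 60 in shSdc1 (249.9 CPM), at least 9.29-fold higher against a floor of 3 counts, but these lay in 8 barcodes and 46.7% in a single one. Its ratio in marker-negative T was 3.36. N4bp1, an inhibitor of NF-kB signals, was at 98.6 CPM in shRFP (11 UMIs) and 279 CPM in shSdc1 (67 UMIs), a ratio of 2.83 [1.48 to 5.94]. The others were Sytl2 of granule traffic (2 and 35 UMIs, ratio 8.13 [2.09 to 69.8]), Glcci1 (2 and 29 UMIs, ratio 6.74 [1.7 to 58.3]), the tyrosine kinase gene Matk (2 and 28 UMIs, ratio 6.51 [1.64 to 56.4]), Ubap2l (3 and 29 UMIs, ratio 4.49 [1.39 to 23]) and Fryl (3 and 29 UMIs, ratio 4.49 [1.39 to 23]). Among lower genes, Tipin, of the replication fork, gave 26 and 17 UMIs, ratio 0.304 [0.155 to 0.582], the histone chaperone gene Nap1l4 30 and 21 UMIs, ratio 0.325 [0.177 to 0.587], and the galectin gene Lgals3 49 and 42 UMIs, ratio 0.398 [0.257 to 0.614]. Glmp gave 31 and 22 UMIs, ratio 0.33 [0.182 to 0.588] with 54.8% of its shRFP UMIs in 1 barcode and a ratio of 0.631 [0.30 to 1.36] without the top barcodes, and Nipsnap3b 20 and 13 UMIs, ratio 0.302 [0.138 to 0.638] with 65% in 1 barcode and a ratio of 0.797 [0.289 to 2.39] without the top barcodes.

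**Figure D5:**
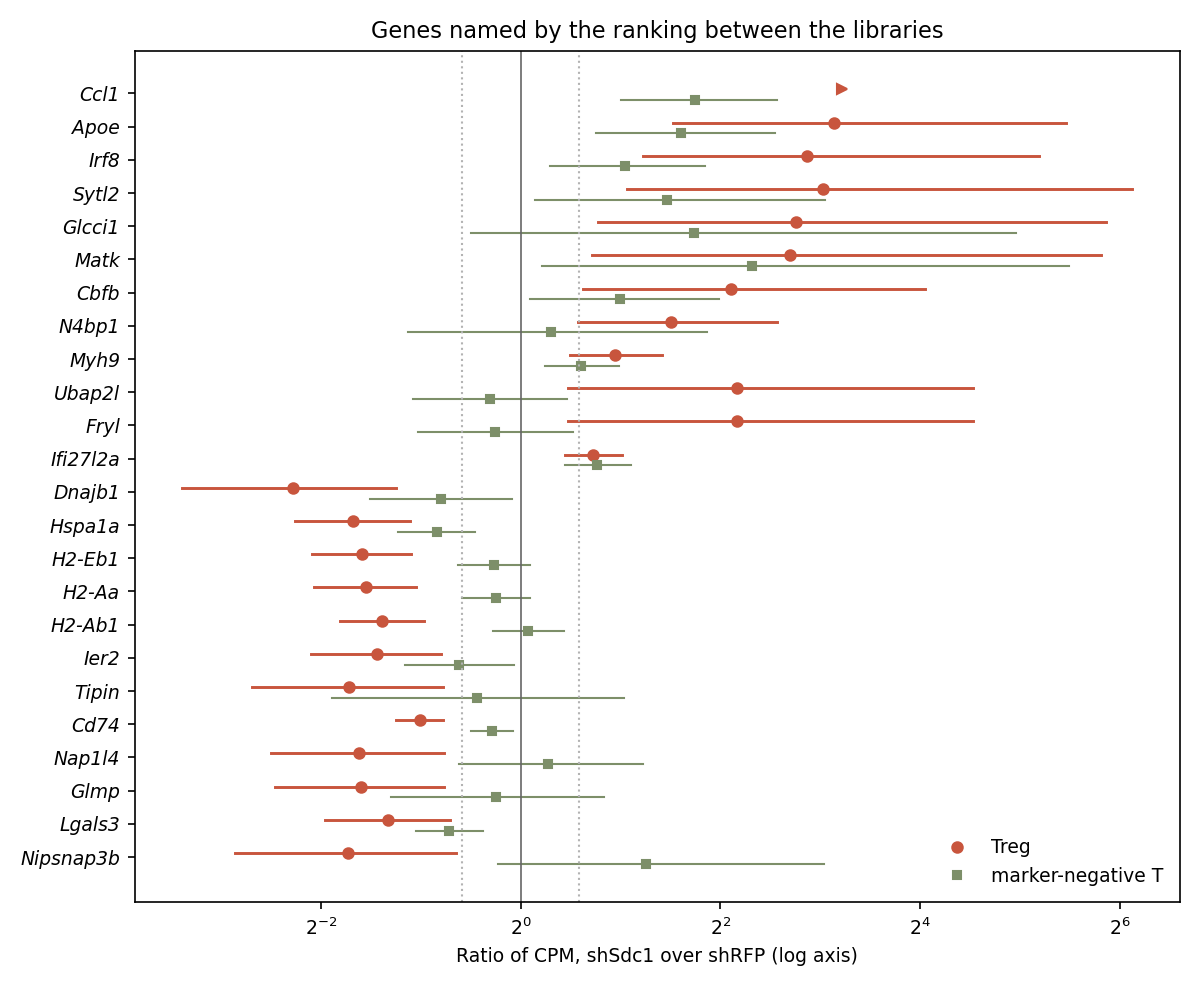
Ratios of CPM, shSdc1 over shRFP, on a log axis for the 24 genes of the ranking in Treg barcodes (circles, a triangle for the lower bound of Ccl1) and in marker-negative T barcodes (squares), with lines for the 95% counting interval, dotted lines at 1.5-fold and a solid line at 1. Dnajb1 is lowest at 0.207 in Tregs against 0.577 in marker-negative T, and was at 0.448 in Lyz2 barcodes, which are not drawn.

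Several ranked genes are those of antigen-presenting cells. MHC class II genes were lower in shSdc1 members, with H2-Eb1 at 753 CPM in shRFP (84 UMIs) and 249.9 CPM in shSdc1 (60 UMIs), a ratio of 0.332 [0.234 to 0.468], H2-Aa at 708 CPM in shRFP (79 UMIs) and 242 CPM in shSdc1 (58 UMIs), a ratio of 0.341 [0.239 to 0.485] and H2-Ab1 at 959 CPM in shRFP (107 UMIs) and 367 CPM in shSdc1 (88 UMIs), a ratio of 0.382 [0.285 to 0.511]. Cd74, their invariant chain, was at 2617 CPM in shRFP (292 UMIs) and 1299 CPM in shSdc1 (312 UMIs), a ratio of 0.496 [0.422 to 0.584]. A Cd74 UMI was present in 37.5% and 33.3% of members, 17% and 10.4% of marker-negative T and 8.11% and 3.4% of CD8 T, and after thinning in 29.3% and 24% of members. The class II UMIs sat in few barcodes, H2-Aa in 13 shRFP and 22 shSdc1 members, with 30.4% and 20.7% in the top barcode. In marker-negative T the ratios of H2-Eb1, H2-Aa, H2-Ab1 and Cd74 were 0.83, 0.84, 1.05 and 0.819, while CD8 T ran the other way, at 3.35, 2.14, 2.63 and 1.62. Among members with a Foxp3 UMI the ratios were 1.12 for H2-Aa and 2.16 for H2-Ab1, without intervals. H2-Eb1 and Cd74 stayed below 1 in every alternative with a value, at no more than 0.766 and 0.708.

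Apoe, a lipid carrier of macrophages, was at 26.9 CPM in shRFP (3 UMIs) and 237 CPM in shSdc1 (57 UMIs), a ratio of 8.83 [2.87 to 44.1], and 45.6% of its shSdc1 UMIs lay in 1 of 21 barcodes. In Lyz2 barcodes Apoe stood at 4437 and 11440.3 CPM, C1qa at 2051 and 4107 CPM and Lyz2 at 13579.5 and 11810.5 CPM. In members C1qa stood at 0 and 45.8 CPM and Lyz2, capped by the rule, at 62.7 and 70.8 CPM. Apoe and C1qa were thus higher in shSdc1 in both kinds of barcode, while H2-Aa, at 2307 and 2890.3 CPM in Lyz2 barcodes, was lower in shSdc1 members and higher in shSdc1 Lyz2 barcodes. The part of myeloid transcripts in these results was not tested. With the 45.5% and 43.0% of members that held such a UMI left out, an alternative added after the data were seen, 113 genes were at least 1.5-fold higher and 110 lower in shSdc1, of fewer genes measured.

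The gene targeted by the hairpin was not detected in the members. Sdc1 had 0 UMIs in the Treg barcodes of both libraries, against a detection floor of 3 counts, so the Treg barcodes do not check the hairpin, which was in the tumor cells. Of 20 syndecan and heparan sulfate genes, 1 was measured, Sdc4, with 17 and 30 UMIs, ratio 0.82 [0.438 to 1.58].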

How the data were processed

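Live CD45+ tumor cells were profiled with the 10x Genomics 3' V3.1 kit, 1 library per group, per the labels. The deposited tables hold unnormalized counts of UMIs for every feature and barcode, which the authors made with version 6.1.1 of Cell Ranger, per the file headers, and aligned to mm10, per the submitters' processing notes. Their annotation release was not found in the labels or headers. Gene positions came from GENCODE M21 on GRCm38, which held 31107 of 31253 features (99.5%), and promoters from RefSeq on GRCm38.p6.

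Members, classes, the 21 gene lists and the 13 marker lists were chosen with earlier results of these data known. UMIs were summed per class and library as CPM, with exact Poisson intervals, exact conditional binomial intervals for ratios and Clopper-Pearson intervals for shares, all at 95%, in Python 3.11 with numpy 2.4.6, scipy 1.17.1 and pandas 2.3.3. Figures were drawn with matplotlib 3.10.9. A gene was measured where its UMIs in the libraries summed to at least 30, and called at 1.5-fold. Where 1 library had no UMI, a bound was computed against 3 counts per library. The genes named were the 12 highest and 12 lowest between libraries and against marker-negative T by the interval bound nearest to 1, leaving out the 19 genes of the selection and mitochondrial, ribosomal, hemoglobin, immunoglobulin, T cell receptor, Xist, Y-linked and unnamed genes; list genes were named for their role, and a few are not reported here. With 1 library per group no test was run. The ratio script was tested on simulated data. Alternatives covered the gates, thresholds, Scrublet scores (scanpy 1.11.5), thinning to 300 UMIs, weighting each barcode alike, leaving out the top barcode, and TMM (edgeR 4.0.16, R 4.3.3) or median-of-ratios scaling.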

Additional observations from a re-analysis of the deposited data

How the results depend on the processing

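Both Treg shares kept their direction under every alternative rule run, with the ranges given above. Counts of genes past the fold threshold depended on the setting. Most settings also change how many genes are measured, so the counts below are not shares and do not by themselves show how stable the calls are. The 286 genes higher and 204 lower in shSdc1 members became 98 and 79 with at least 500 genes per barcode, 41 and 41 with a required Foxp3 UMI, 1188 and 873 with a minimum of 10 UMIs, 17 and 18 with a minimum of 100, and 74 and 51 at 2-fold. They became 113 and 110 without members holding a UMI of the 8 antigen presentation, complement and Apoe genes, mostly Cd74, an alternative chosen after seeing the data. The 128 genes higher and 62 lower than in marker-negative T became 24 and 14 with at least 500 genes, 43 and 26 at 2-fold and 73 and 27 after thinning, with 83 higher under a required Foxp3 UMI and 39 lower under a T gate of at least 2 UMIs. The direction turned with at least 500 genes for Itgav (0.989), Ccr2 (1.07) and the suppression median (-0.016), and with a required Foxp3 UMI for Hspa1a (1.42), H2-Aa (1.12), H2-Ab1 (2.16) and Glmp (1.42). It also turned for the cytokine and cytotoxic medians (-0.14 and -0.024) when members were chosen by Foxp3, Ikzf2 or Izumo1r, and for Lgals3 (1.02) without members holding a UMI of those 8 genes. Other list medians near 0 crossed it as well, ranging over the alternatives from -0.44 to 0.20 for Treg transcription factors, -0.15 to 0.29 for the IL-2 and STAT5 response, -0.27 to 0.17 for chemokine receptors, -0.41 to 0.09 for naive and resting genes, -0.35 to 0.27 for apoptosis, -0.12 to 0.09 for MHC class I and -0.11 to 0.17 for actin and adhesion. Values of genes with no call also crossed 1 under a required Foxp3 UMI, Tnfrsf9 at 0.764, Hif1a at 0.967, Batf at 1.23 and Il10 at 0.189, as did Rora (1.195) with at least 500 genes and Klrg1 (1.08) without members holding a UMI of those 8 genes. Members with a Foxp3 UMI held 22474 UMIs in shRFP and 47646 in shSdc1, so ratios among them can rest on few UMIs and are given without intervals. Batf and Il10 had 5 UMIs each in those shRFP members. H2-Eb1 and Cd74 stayed below 1 in every alternative with a value. Of the other values of named genes and lists under an alternative, 761 stayed near the values given (for genes, within the counting interval) and 79 moved further. The cause was not tested. TMM scaling shifted every log2 ratio by 0.04 and median-of-ratios scaling by -0.02. No paired analysis was possible because each group is 1 library. Depth limits single genes: at medians of 429.5 and 455 UMIs per member, most genes rest on few UMIs, and with 1 library per group no value here measures the spread between tumors.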
